A study of Vitis amurensis with 6 samples.

Results

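Galactinol synthases were followed in leaves of Vitis amurensis, a cold-hardy wild grape of north-east Asia, after 2 h at 4 °C. The genes were chosen as 8 identifiers of the grape gene set listed as galactinol synthases, and 7 of them had a row among the 31845 genes of the deposited table; VIT_214s0060g00780 was not analysed here. The list is one of gene names with no threshold on a measured value, but it was drawn up with earlier results of these data known. It was not checked against an annotation or a sequence, so the name galactinol synthase rests on that list alone. The cold group consisted of 3 libraries from leaves of wild-type plants moved to a prechilled incubator at 4 °C for 2 h. The control group consisted of 3 libraries from untreated wild-type plants kept at 26 °C (0 h of cold). Plants of both groups were a month old, were grown in vitro on B5 medium with the auxin IBA in cycles of 16 h light and 8 h dark, and stood under about 100 µmol of light per square metre and second when sampled. Whether a group's replicates were separate plants or cultures is not in the labels, and a p-value here therefore covers the variation among these libraries, part of which may be technical. They also do not say when of the day each group was sampled, so time of day, handling and temperature cannot be told apart.

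Galactinol synthase catalyses the first committed step of the raffinose family of sugars. It joins galactose from UDP-galactose to myo-inositol, and the product, galactinol, then donates its galactose to sucrose in the reaction of raffinose synthase. Raffinose and galactinol are soluble, protect membranes and scavenge radicals, and they accumulate in many plants under cold, drought or heat. In Arabidopsis the genes of this family divide the work, some being induced by drought or heat and another by cold through the CBF/DREB1 regulators.

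Library totals, worked out from the steps of the deposited values, ran from 18773557 to 21217704 reads in cold and from 16437001 to 16657708 reads in control. Values are FPKM, reads scaled to gene length and to the total of the library, and can therefore be compared between genes. Control library 1 stood apart from the other control libraries: on the second principal component of log2(FPKM + 1), which carried 14.2% of the variance, it lay at 39.1, with control libraries 2 and 3 at -16.6 and -22.7. Results that rest on it are given with and without it.

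No galactinol synthase gene passed the test for a higher level after 2 h of cold, and 1, VIT_214s0060g00810, passed it for a lower level. Its mean was 24.9-fold lower in chilled leaves. The most abundant member, VIT_201s0127g00470, supplied at least 96.5% of the summed FPKM of the 7 genes in every library and did not pass the test. A mean of at least 1 FPKM over the 6 libraries was asked of a gene to be tested, and 6 of the 7 met it; VIT_207s0005g01980 averaged 0.970 FPKM and missed it. Over all 17155 tested genes, 34.4% were called, 13.4% as lower and 21.0% as higher after cold (limma-trend on log2(FPKM + 1), Benjamini-Hochberg adjusted p under 0.05), so 1 lower call among 6 is close to the background share.

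**Figure D1:**
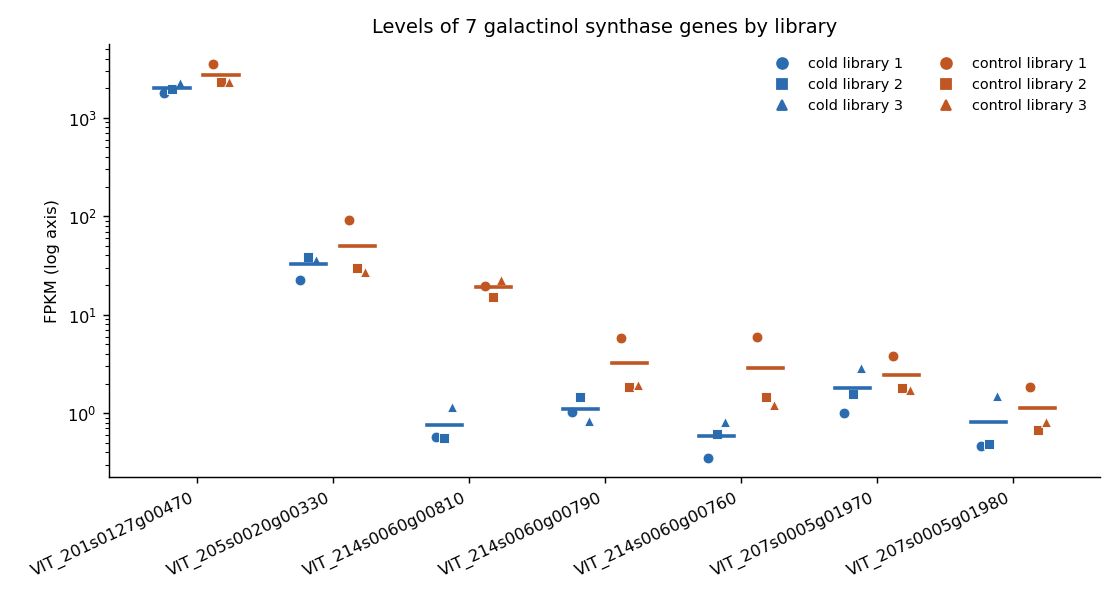
FPKM on a log axis for each of the 7 genes, cold libraries (blue) left of control libraries (orange), with a bar at each group mean; circles, squares and triangles are libraries 1, 2 and 3. VIT_214s0060g00810 lies between 0.555 and 1.16 FPKM in cold and between 15.1 and 22.6 FPKM in control, and in the other 6 genes control library 1 is the highest of the control libraries.

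The gene that fell stands in a group of neighbouring identifiers. VIT_214s0060g00810, of chromosome field 14 and scaffold field 0060 of the identifier, had 0.576, 0.555 and 1.16 FPKM in cold libraries 1, 2 and 3, against 19.4, 15.1 and 22.6 FPKM in control libraries 1, 2 and 3. These values stand for 14, 14 and 32 reads in cold and 418, 322 and 485 reads in control. Every cold library was far below every control library, and control library 1 was not the highest here. The mean was 0.765 ± 0.346 FPKM in cold and 19.0 ± 3.75 FPKM in control (mean ± SD of 3 libraries each), so 4.02% of the control level was left. The fitted log2 change was -3.50 with a standard error of 0.19 and a 95% interval from -3.96 to -3.05 (limma-trend, adjusted p = 0.000186). On this scale 11 of the 17155 tested genes had a lower value. With 1 FPKM added to each value the change of a gene this low in cold is understated; limma-voom on the recovered reads gave -4.65 (adjusted p = 0.000706). Without control library 1 the log2 change was -3.48 (limma-trend, adjusted p = 0.000176).

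VIT_214s0060g00790, which shares that scaffold field, had 1.02, 1.46 and 0.833 FPKM in cold, against 5.86, 1.82 and 1.95 FPKM in control. The groups did not overlap, but the distance between them was small apart from control library 1. The mean was 1.11 ± 0.322 FPKM in cold and 3.21 ± 2.30 FPKM in control (mean ± SD of 3 libraries each). The log2 change was -0.88 with a standard error of 0.35, and it did not pass the test after adjustment (limma-trend, adjusted p = 0.0996). Without control library 1 it was -0.47, with a 95% interval from -0.90 to -0.03 (limma-trend, adjusted p = 0.0856). With all libraries, limma-voom on the recovered reads gave -1.35 (adjusted p = 0.0989), so the added 1 FPKM understated this change too.

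VIT_214s0060g00760 showed 0.353, 0.612 and 0.812 FPKM in cold, against 5.92, 1.45 and 1.20 FPKM in control. The groups did not overlap here either, with means of 0.592 ± 0.230 FPKM in cold and 2.86 ± 2.66 FPKM in control (SD, n = 3 in each group). Control library 1 was more than 4 times as high as either other control library. Its 149 reads there correspond to between 5.01 and 6.95 FPKM and the 36 reads of control library 2 to between 1.02 and 2.01 FPKM (exact Poisson 95% intervals, counting error only). The log2 change was -1.08 (standard error 0.44; adjusted p = 0.101 by limma-trend) with all libraries and -0.55 without control library 1 (limma-trend, adjusted p = 0.0678). Without that library the gene averaged 0.885 FPKM, so it entered the test through control library 1. With all libraries, limma-voom on the recovered reads gave -1.92 (adjusted p = 0.102), a larger fall than with 1 FPKM added.

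Within the chromosome 14 trio, the share held by the gene that fell did not overlap between the groups. VIT_214s0060g00810 made up 29.5%, 21.1% and 41.5% of the sum of the 3 genes in cold libraries 1, 2 and 3, against 62.2%, 82.2% and 87.8% in control libraries 1, 2 and 3. The sum itself was 2.46 ± 0.452 FPKM in cold and 25.1 ± 6.40 FPKM in control (mean ± SD of 3 libraries each). VIT_214s0060g00810 stood at 1.63, 0.907 and 1.44 times the level of VIT_214s0060g00760 in cold, against 3.27, 10.4 and 18.9 times in control. Its ratio to VIT_214s0060g00790 was 0.563, 0.380 and 1.40 in cold, against 3.31, 8.29 and 11.6 in control. The mean log2 ratio, cold minus control, differed by -2.75 against VIT_214s0060g00760, by -3.35 against VIT_214s0060g00790 and by -4.30 against VIT_201s0127g00470. VIT_214s0060g00810 was set against the others after its fall was seen, so these ratios restate that fall within each library and are given with no test. They do not depend on the scaling between libraries. The 2 other rows between these members in the numbering, VIT_214s0060g00770 and VIT_214s0060g00800, reached at most 0.0557 and 0.460 FPKM in any library. The sources used here do not state what was done with reads that match several near-identical copies, and values of single genes in this group carry that uncertainty.

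**Figure D2:**
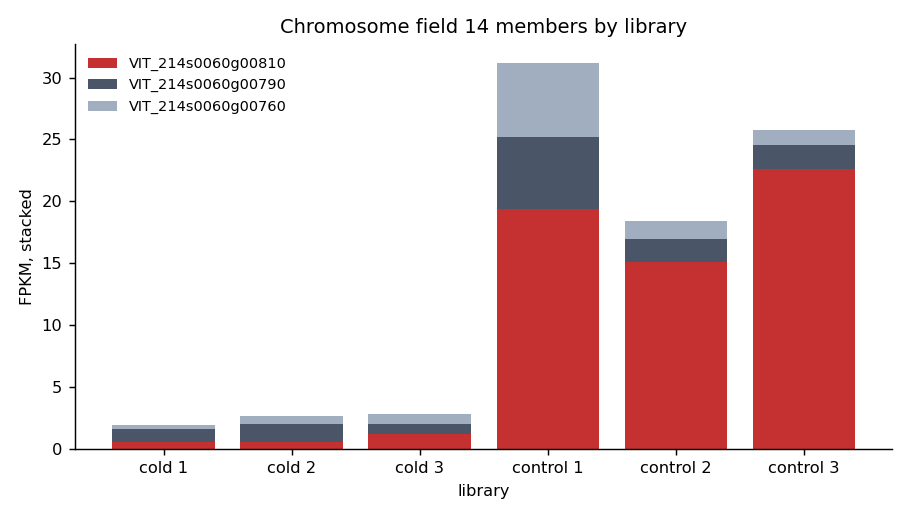
Stacked FPKM of the 3 genes of chromosome field 14 in each library, cold libraries on the left. The sum averages 2.46 FPKM in cold and 25.1 FPKM in control, and VIT_214s0060g00810 (red) is most of the sum in each control library and at most 41.5% of it in each cold library.

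VIT_201s0127g00470, of chromosome field 1, was the dominant transcript of the set and one of the most abundant of the leaf. It had 1795, 1984 and 2272 FPKM in cold, against 3549, 2325 and 2299 FPKM in control. The highest cold library and the lowest control library nearly met, while control library 1 lay far above both. By mean FPKM it ranked 14 of 31845 genes in cold and 9 in control, and it took 0.403% ± 0.0480 of the reads in cold and 0.544% ± 0.143 in control (mean ± SD of 3 libraries each). The log2 change was -0.41 with a standard error of 0.21 and a 95% interval from -0.90 to 0.08 (limma-trend, adjusted p = 0.170). A 2-fold rise lies outside that interval, and a 2-fold fall lies just outside it. Whether a 2-fold fall stayed outside depended on the fit, and most alternatives did not exclude it. The lower end was -1.15 with quantile normalization, -1.13 with no filter on low values and -1.05 with the replicate block. Median-of-ratios scaling gave -1.01. Leaving out cold library 2 or 3 gave -1.04 or -1.09, and leaving out control library 2 or 3 gave -1.11 or -1.10. A 2-fold fall stayed outside in the remaining alternatives. There the lower end was -0.86 with limma-voom, -0.90 with the pseudocount of 0.1 FPKM and -0.88 under the stricter 5 FPKM cut. It was -0.94 without cold library 1 and -0.51 without control library 1. Without control library 1 the change was -0.20, with an interval from -0.51 to 0.11 (limma-trend, adjusted p = 0.251). Its values rest on between 67323 and 118119 reads per library.

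VIT_205s0020g00330, of chromosome field 5, was the second most abundant member. It had 22.5, 38.6 and 36.2 FPKM in cold, against 92.2, 29.7 and 27.5 FPKM in control. The groups overlapped: control library 1 was the highest of all 6, and the other control libraries lay between cold library 1 and cold libraries 2 and 3. Its log2 change was -0.41 (standard error 0.47; adjusted p = 0.533 by limma-trend), and without control library 1 the sign turned, to 0.14 with an interval from -0.40 to 0.68 (limma-trend, adjusted p = 0.648). No direction can be given for this gene.

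The pair of chromosome field 7, VIT_207s0005g01970 and VIT_207s0005g01980, carries neighbouring identifiers and was low in both groups. VIT_207s0005g01970 had 1.00, 1.57 and 2.88 FPKM in cold, against 3.77, 1.80 and 1.73 FPKM in control. Cold library 3 lay above control libraries 2 and 3, so the groups overlapped. The log2 change was -0.29 with a 95% interval from -1.04 to 0.46 (limma-trend, adjusted p = 0.510), and -0.03 without control library 1 (limma-trend, adjusted p = 0.943).

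VIT_207s0005g01980 had 0.467, 0.491 and 1.50 FPKM in cold, against 1.86, 0.678 and 0.817 FPKM in control, from between 11 and 40 reads per library. The groups overlapped in the same way as for its neighbour. With no filter on low values its log2 change was -0.23 with an interval from -0.92 to 0.47 (limma-trend, adjusted p = 0.622). VIT_207s0005g01970 was 2.15, 3.19 and 1.92 times as high as its neighbour in cold, against 2.02, 2.66 and 2.12 times in control. That ratio overlapped between the groups (log2 difference 0.07, cold minus control) and stayed between 1.92 and 3.19 in the 6 libraries.

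**Figure D3:**
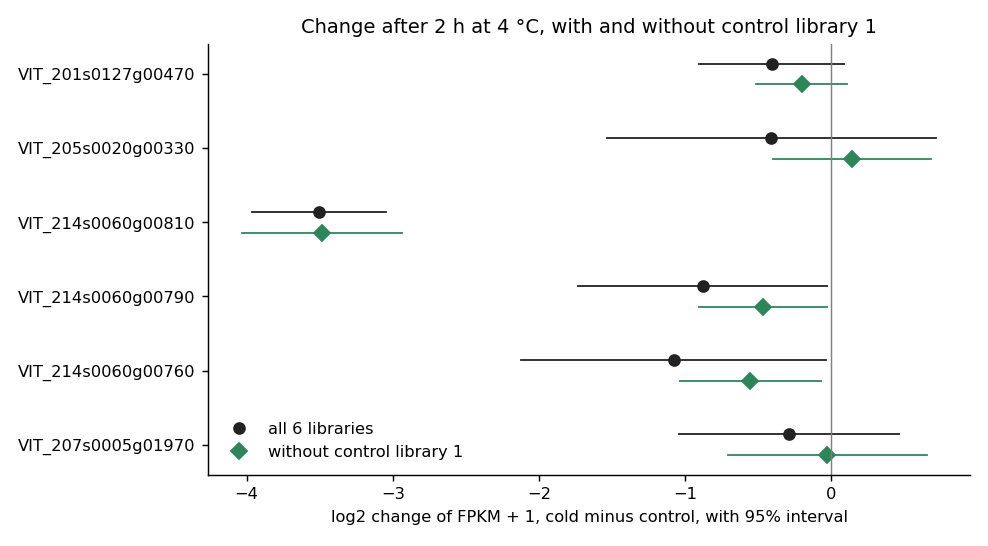
Log2 change of FPKM + 1, cold minus control, with its 95% interval for the 6 tested genes, with all 6 libraries (black circles) and without control library 1 (green diamonds). VIT_214s0060g00810 stays near -3.5 in both fits, while the estimates of the other 5 genes lie closer to 0 without that library and VIT_205s0020g00330 turns from -0.41 to 0.14.

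In cold the order by mean was VIT_201s0127g00470, VIT_205s0020g00330, VIT_207s0005g01970, VIT_214s0060g00790, VIT_207s0005g01980, VIT_214s0060g00810 and VIT_214s0060g00760. The first 2 were separated from each other and from the rest, and from the third place on the ranges of all neighbours in the order overlapped. In control VIT_214s0060g00810 held the third place, and its range overlapped neither that of VIT_205s0020g00330 above it nor that of VIT_214s0060g00790 below it. VIT_214s0060g00790, VIT_214s0060g00760, VIT_207s0005g01970 and VIT_207s0005g01980 followed, each overlapping with the next.

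As a description, all 6 tested genes had a fitted change below 0 with all libraries (5 of them without control library 1), as had 41.6% of all tested genes, and in 4 of the 6 every cold library was below every control library, which held for 19.7% of all tested genes. The median log2 change was -0.65 over the 6 genes and 0.08 over all tested genes. Without control library 1 these medians were -0.33 and 0.08. The 6 include VIT_214s0060g00760, which passed the filter only through that library. Of the other 5, 3 had groups that did not overlap, and the median of the 5 was -0.41. These 3 include VIT_214s0060g00810, whose cold mean of 0.765 FPKM lies under the filter, so it entered the test through the control group. At an unadjusted limma-trend p under 0.05, 3 of the 6 genes were lower and 0 higher, against 17.7% of all tested genes lower; the count lower was 1 without any one of the cold libraries and 2 with the replicate block. The genes were listed with earlier results of these data known, and they share their libraries, so these counts and medians are a description and support no direction.

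**Figure D4:**
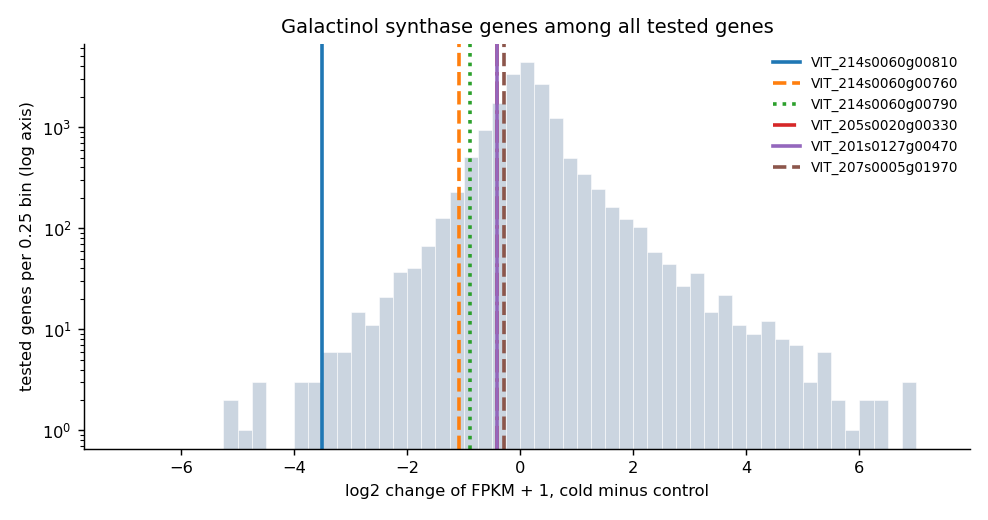
Number of tested genes per 0.25 bin of log2 change, cold minus control (count on a log axis), with the 6 tested galactinol synthase genes as vertical lines. VIT_214s0060g00810 at -3.50 lies in the far left tail, where 11 genes are lower, and the other 5 lie between -1.08 and -0.29.

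Within the control group, library 1 held the top value in 6 of the 7 genes, against 38.9% of all tested genes. It was at least 2 times as high as either other control library for 5 of the 7 and for 3.75% of all tested genes, and at least 3 times as high for 3 of the 7 and for 1.60% of all tested genes. The 5 include VIT_207s0005g01980, which was not among the tested genes. Both the 5 and the 3 include VIT_214s0060g00760, which passed the filter only through control library 1. The counts and the shares are therefore not from like sets and are a description. The ratio to the higher of the other control libraries was 4.08 for VIT_214s0060g00760, 3.11 for VIT_205s0020g00330, 3.01 for VIT_214s0060g00790 and 1.53 for VIT_201s0127g00470. For VIT_214s0060g00810 it was 0.857. Among the cold libraries, library 1 was the lowest for 5 of the 7 genes, against 38.7% of all tested genes, and library 3 the highest for 5, against 47.2%. The within-group standard deviation of log2(FPKM + 1) was 0.74 for VIT_205s0020g00330 and 0.66 for VIT_214s0060g00760. It was 0.53 for VIT_214s0060g00790 and 0.47 for VIT_207s0005g01970, against a median of 0.15 over all tested genes. For VIT_201s0127g00470 and VIT_214s0060g00810 it was 0.28 and 0.27. The added 1 FPKM narrows this spread for low values, such as those of VIT_214s0060g00810 in cold.

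**Figure D5:**
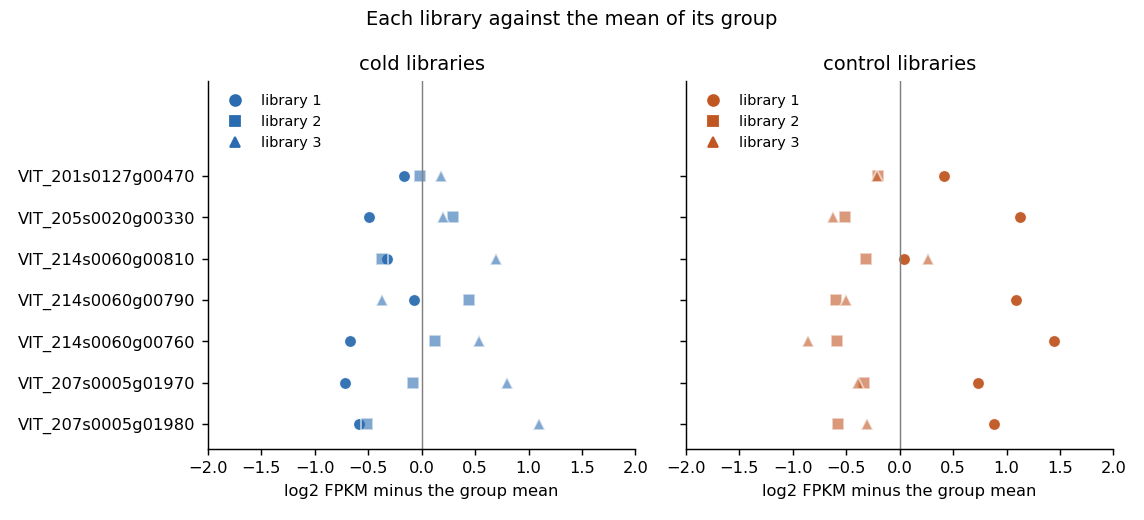
Log2 FPKM of each library minus the mean of its group, for cold libraries (left panel) and control libraries (right panel); circles, squares and triangles are libraries 1, 2 and 3. Control library 1 lies to the right of the other control libraries in 6 of 7 genes, and cold library 1 is the lowest of the cold libraries in 5 of 7.

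The summed level of the 7 genes was 2055 ± 248 FPKM in cold and 2803 ± 758 FPKM in control (mean ± SD of 3 libraries each), and 2365 FPKM in control without library 1. Summed over the 6 genes other than VIT_201s0127g00470, the level was 37.5 ± 10.1 FPKM in cold and 78.4 ± 43.8 FPKM in control, and 53.2 FPKM in control without library 1. A sum over bulk leaf RNA does not tell fewer cells with the transcript from less transcript per cell.

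By Pearson's r of log2(FPKM + 1) over the 6 libraries, the genes outside the set that ran most like VIT_201s0127g00470 were VIT_203s0097g00560 (r = 0.998) and VIT_211s0016g03180 (r = 0.996). VIT_203s0097g00560 had 61.8, 67.8 and 76.6 FPKM in cold, against 109.7, 76.4 and 74.3 FPKM in control. VIT_211s0016g03180 had 50.6, 68.5 and 89.8 FPKM in cold, against 305, 112 and 102 FPKM in control. In both, as in VIT_201s0127g00470, control library 1 was the highest library and cold library 1 the lowest. These are the highest of 17149 correlations over the same 6 libraries and are given as a description.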

How the data were processed

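RNA was sequenced from 6 leaf libraries, 3 cold and 3 control, prepared with a TruSeq kit per the labels' protocols. The authors deposited one table of FPKM values, 1 column per library with no pooling, and 0 columns were left unused. FastQC, cutadapt, STAR, HTSeq and DESeq2 are named in the submitters' processing notes; the sources used here state no version, role, genome build, annotation or strand setting.

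The 17155 genes averaging 1 FPKM or more were compared by limma-trend on log2(FPKM + 1), two-sided, with Benjamini-Hochberg adjustment over all of them and a threshold of 0.05. Whole reads were recovered from the steps of the values: within 0.001 reads, all 25054 genes above 0 came out whole, and their reads summed to between 99.4% and 99.6% of the implied totals. They served for depth, Poisson intervals and limma-voom. Recovery and fit were tested on simulated data. The simulation of the fit gave every gene the same dispersion and held no outlying library. It therefore does not show how the fit behaves for these members. Nothing in the labels says that replicate numbers pair the libraries, so the main fit did not pair them. All members were named, and the genes most like the most abundant member were the 2 with the highest r. Members and lists were chosen with earlier results of these data known. Lists of other raffinose pathway genes, heat stress factors and tissue markers were set by product name, and promoter motifs were set by sequence. No product names or promoter sequences were used here, so these were not tested and the labelled tissue was not checked. Fits ran in limma 3.58.1 under R 4.3.3, and all else in Python 3.11.15 with matplotlib 3.10.9, SciPy 1.17.1, pandas 2.3.3 and numpy 2.4.6.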

Additional observations from a re-analysis of the deposited data

How the results depend on the processing

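The count of galactinol synthase genes lower after cold was 1 and the count higher was 0 in each of the 13 alternatives (another pseudocount, 2 other filters, 2 other scalings, the replicate block, limma-voom and leaving out each library). The log2 change of VIT_214s0060g00810 lay between -4.65 and -3.38, with an adjusted p of at most 0.00263. No other member passed the test in any alternative; the lowest adjusted p was 0.0502, for VIT_214s0060g00760 under quantile normalization. The change of VIT_205s0020g00330 was 0.14 without control replicate 1 and between -0.72 and 0.14 when each library was left out in turn. With each library left out, the count over all tested genes ran from 1425 to 2746 lower and from 2253 to 4180 higher; the low ends came without cold replicate 2; the cause was not tested. In the fit with the replicate block, VIT_214s0060g00810 changed by -3.50 (limma-trend, adjusted p = 0.00263), and 1627 genes were lower and 2480 higher. Deviations from the group mean correlated at -0.26, -0.13 and -0.28 between libraries of the same number. These values gave no sign of pairing, but they cannot exclude it. Rises were 61.1% of all calls as deposited, 49.0% after median-of-ratios scaling and 45.5% after quantile normalization. The filter at a mean of 5 FPKM left 3 members in the test. Alternatives on the pathway lists were not run, because no product names were used here.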
